A study of Mus musculus with 8 samples.

Results

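Ccl2, Ccl7 and Ccl12 encode monocyte chemoattractant proteins of the mouse, and the 3 genes were followed through 8 arrays of Raw264.7 cells exposed to probiotic bacteria. They were chosen by name, with their Cy5 over Cy3 ratios and their untreated levels already known, and are 3 of 15203 genes with a value. The genes were measured by 4 probes, 1 for Ccl2 (printed in 10 spots), 2 for Ccl7 and 1 for Ccl12. Since the choice rested on these measurements, ratios and levels of the 3 genes are given as a description, with their spread and with no test.

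CC chemokines are small secreted proteins that guide leukocytes along a concentration gradient. Those encoded by Ccl2, Ccl7 and Ccl12 act on the receptor Ccr2, through which inflammatory monocytes leave the bone marrow and enter infected tissue. Macrophages are a main source of these proteins after contact with bacteria, and NF-kB, AP-1 and interferon-driven factors are known to act on the promoters of such genes.

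Raw264.7 is a macrophage-like line from BALB/c mice. Cells were treated with *Lactobacillus acidophilus* (2 arrays), *Bacillus clausii* (3 arrays) or *Bifidobacterium bifidum* (3 arrays), at a multiplicity of infection of 1 for 6 hours, and each array set RNA of treated cells, labelled with Cy5, against RNA of time-matched untreated cells, labelled with Cy3. The dyes were never swapped, so a dye preference of a probe stays in every ratio of treated over untreated cells. The design text states 3 biological replicates a condition, but no label ties an array to a culture, so p-values reflect variation from array to array that could be purely technical. Untreated cells were not set against other untreated cells, and their own spread is not in the ratios.

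The arrays lay on 2 slides, and the strains were divided unevenly between them. Slide 1 held both *L. acidophilus* arrays and the third replicate of each other strain, and was scanned with an extended range. The remaining 4 arrays, replicates 1 and 2 of both *Bacillus* and *Bifidobacterium* treatments, were on slide 2. Between 21508 and 26473 probes were well above background on 7 arrays, against 12543 on *B. clausii* replicate 3, whose grid the scanner software rated not good and whose repeated spots had a coefficient of variation of 72.5% in Cy5 and 67.4% in Cy3. No spot of Ccl2, Ccl7 or Ccl12 was saturated on any array. The macrophage identity of the cells showed in the untreated channel, where 6 of 8 measured macrophage markers (of 10 listed) were well above background on all 8 arrays. Precision is limited by how few arrays there are.

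On chromosome 11 the genes stand in the order Ccl2, Ccl7, Ccl11, Ccl12, Ccl8 and Ccl1 in the RefSeq gene table (assembly GRCm38.p6), with Ccl11, an eosinophil chemoattractant gene, between Ccl7 and Ccl12. The RefSeq promoter table used here matched 1 of the 3 genes, Ccl12. Its upstream sequence is shown because Ccl12 was barely above background although it shares this stretch of chromosome with Ccl2 and Ccl7. The sequence covers the 250 bases before the annotated start on the plus strand, chr11:82101595-82101844 (GRCm38.p6), and capitals mark the TATA box.
Ccl12 upstream: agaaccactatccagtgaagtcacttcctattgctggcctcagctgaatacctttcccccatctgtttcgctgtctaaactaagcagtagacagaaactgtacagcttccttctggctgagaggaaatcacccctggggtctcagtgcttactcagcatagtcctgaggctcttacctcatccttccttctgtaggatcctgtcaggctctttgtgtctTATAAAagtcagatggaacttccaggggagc
The match to TATAAA lay 31 to 26 bases before the start. Of 32851 promoter windows of this length, 12.4% held TATAAA on either strand. The other motifs searched, each on both strands and with overlaps allowed, were an AP-1 site (TGANTCA, in 6.75% of windows), an NF-kB site (3 G and 2 C with 5 bases between, 45.8%), a GAS element (TTCNNNGAA, 7.02%), an ISRE core for interferon-regulated factors (GAAA repeated after 2 bases, 2.98%) and a C/EBP site (TTGCNNAA, 9.56%). None of these 5 motifs occurred in the Ccl12 window, which says nothing about binding of the factors.

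Ccl2, which encodes the prototype monocyte chemoattractant, had ratios above 0 on 8 of 8 arrays and the highest ratios with *B. bifidum*. With *L. acidophilus* its log2 ratio of treated over untreated cells was 0.39 and 0.49. With *B. clausii* it was 0.15, 0.13 and 0.24 in replicates 1 to 3, and with *B. bifidum* 0.62, 0.63 and 0.54. After loess the arrays of the 3 strains did not overlap, with *B. bifidum* highest, *L. acidophilus* between and *B. clausii* lowest. The highest *L. acidophilus* value, 0.49, was close to the lowest of *B. bifidum*, 0.54, and *L. acidophilus* was on slide 1 only. How many of all genes kept the strains apart in this way was not counted. The strain means were 0.44 ± 0.07 (SD, n = 2), or 1.36-fold, with *L. acidophilus*, 0.17 ± 0.06 (SD, n = 3), or 1.13-fold, with *B. clausii*, and 0.60 ± 0.05 (SD, n = 3), or 1.51-fold, with *B. bifidum*. In these bulk cultures, a change in the number of cells making a transcript and a change in transcript per cell cannot be told apart.

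The raw brightness of the Ccl2 probe shows how much of these ratios rests on the dye correction. On the *L. acidophilus* arrays the mean of its spots' median intensities was 225563 and 201320 in Cy5 (treated), against 124969 and 105510 in Cy3 (untreated). On the *B. clausii* arrays it was 4826, 4964 and 25451 in treated cells, against 8784, 8605 and 27409 in untreated cells. On the *B. bifidum* arrays it was 7908, 5214 and 157520 in treated cells, against 8094, 5388 and 138032 in untreated cells. Before dye correction, Cy5 was thus the brighter channel on both *L. acidophilus* arrays and on *B. bifidum* replicate 3, and the dimmer one on the other 5 arrays. After loess, which removes the trend of the ratio with brightness on each array, all 8 were above 0.

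How far Ccl2 stood above 0 depended on this step. The scanner software's processed signals also gave ratios above 0 on 8 of 8 arrays, from 0.08 to 0.68, with strain means of 0.18 ± 0.08 for *L. acidophilus* (SD, n = 2), 0.12 ± 0.04 for *B. clausii* and 0.55 ± 0.20 for *B. bifidum* (SD, n = 3 each). With these signals the *L. acidophilus* and *B. clausii* arrays were no longer apart. Centring each array on its median, with no correction for brightness, left 5 of 8 arrays above 0 and moved the median of all genes to 0.14, −0.22 and −0.35 in the 3 strains. Relative to that shift the Ccl2 mean was 1.06 with *L. acidophilus*, −0.05 with *B. clausii* and 0.33 with *B. bifidum*. The mean of *B. bifidum* was above that of *B. clausii* under these normalizations, although with median centring *B. bifidum* replicate 2, at −0.80, was the lowest of the 8 arrays. The size of the *L. acidophilus* mean and the sign of the *B. clausii* mean changed with the normalization. The sign of the *B. bifidum* mean changed too where the shift of all genes was left in, at −0.020 with median centring.

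**Figure D1:**
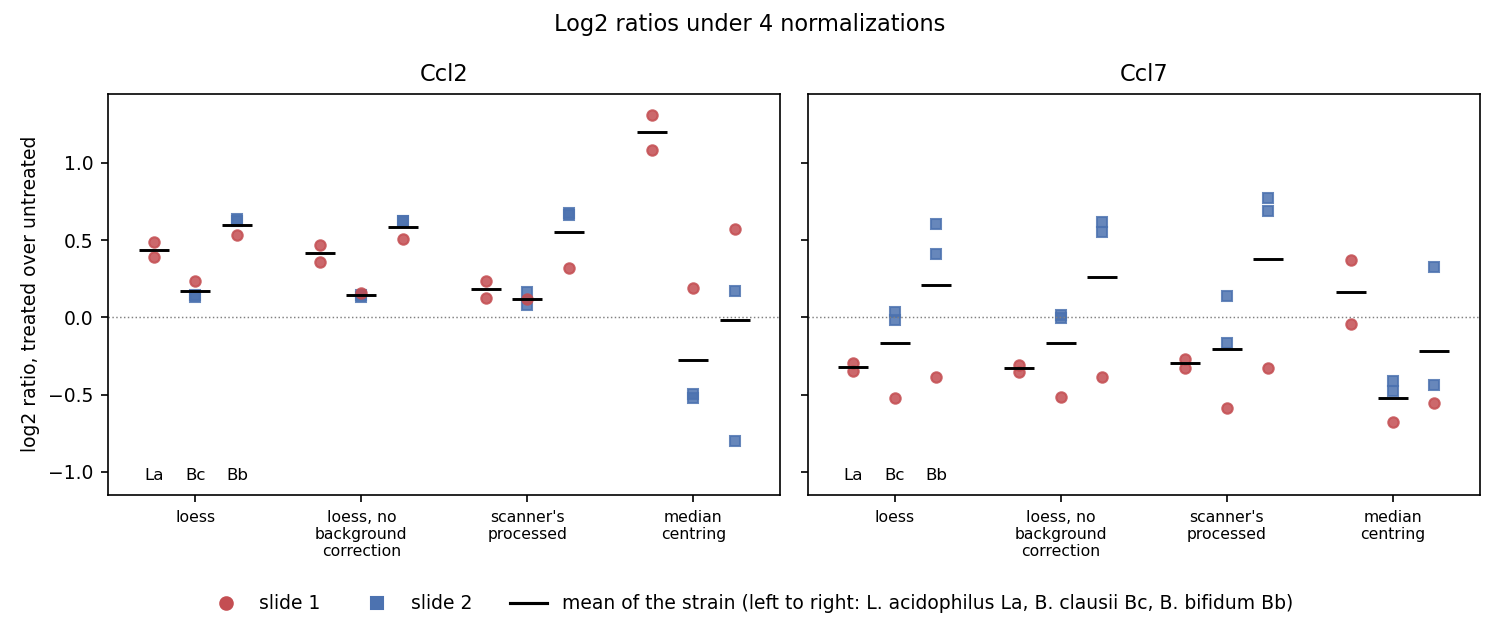
Log2 ratio of treated over untreated cells (y axis) for Ccl2 and for the brighter Ccl7 probe under 4 normalizations (x axis), with arrays as points coloured by slide and strain means as bars, in the order L. acidophilus, B. clausii and B. bifidum. For Ccl2 all points lie above 0 except under median centring, where 5 of 8 do.

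The 10 spots of the Ccl2 probe give its precision within an array. After spots marked as outliers were left out, 7 to 10 spots remained on an array, and their SD was between 0.05 and 0.18. All used spots were above 0 on all 8 arrays, the lowest being 0.02 on *B. clausii* replicate 1. The spots left out on *B. clausii* replicates 1 and 2 were below 0, at −0.15 and −0.16, and those left out on other arrays were above 0. On *B. clausii* replicate 3, the array with the poor grid, 7 spots remained, and they ran from 0.18 to 0.33. On *B. bifidum* replicate 3 the spots were the most spread, from 0.18 to 0.74. Spots of 1 array share the hybridisation and are not replicates of the treatment.

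**Figure D2:**
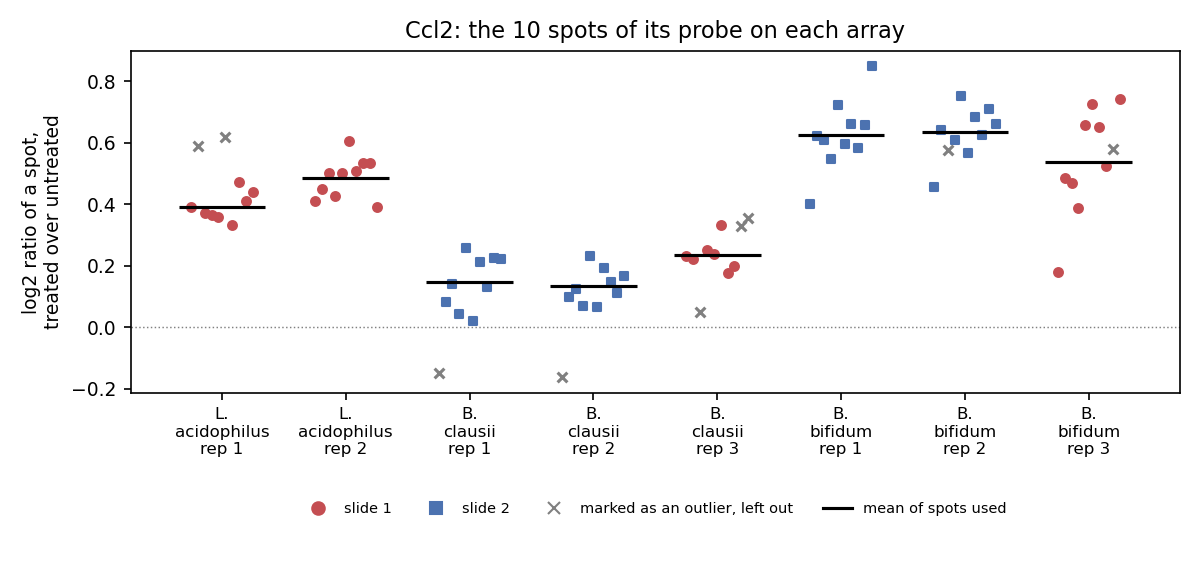
Log2 ratio of each of the 10 Ccl2 spots (y axis) on the 8 arrays (x axis), coloured by slide, with spots marked as outliers as crosses and the mean of the used spots as a bar. The B. bifidum means lie at 0.54 to 0.63 and the B. clausii means at 0.13 to 0.24.

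Within a slide, *B. clausii* can be set against *B. bifidum* on arrays that share the scan. On slide 2, the mean Ccl2 log2 ratio was 0.14 with *B. clausii* and 0.63 with *B. bifidum* (n = 2 each), a difference of −0.49. It was −0.55 from the processed signals and −0.19 with median centring. On slide 1, with 1 array a strain, it was 0.24 with *B. clausii* and 0.54 with *B. bifidum*, a difference of −0.30. A dye effect common to all arrays cancels in this difference. The mean difference was negative on both slides and under these 3 normalizations, but with median centring the same-numbered pairs of slide 2 went opposite ways. Replicate 1 then had −0.52 with *B. clausii* and 0.17 with *B. bifidum*, and replicate 2 had −0.50 with *B. clausii* and −0.80 with *B. bifidum*.

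Ccl7, which encodes monocyte chemoattractant protein 3 and lies next to Ccl2, did not follow the same pattern. Its brighter probe had log2 ratios of −0.29 and −0.35 with *L. acidophilus*, below 0 on both arrays. With *B. clausii* the ratios were −0.01, 0.04 and −0.52, and with *B. bifidum* 0.60, 0.41 and −0.39, in replicates 1 to 3. In both of these strains replicate 3, the slide 1 array, was below the slide 2 arrays. The 4 arrays of slide 1 were thus all below 0, between −0.52 and −0.29, whichever bacterium had been added, and the 4 arrays of slide 2 ran from −0.01 to 0.60. With median centring, *L. acidophilus* replicate 1 was above 0 and slide 2 had 1 of 4 arrays above 0.

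The arrays behind the *B. clausii* and *B. bifidum* means over slides were therefore widely spread. Strain means were −0.32 ± 0.04 (SD, n = 2) with *L. acidophilus*, −0.17 ± 0.31 (SD, n = 3) with *B. clausii* and 0.21 ± 0.53 (SD, n = 3) with *B. bifidum*, so that neighbouring strains did not differ beyond their spread. Median centring turned the *B. bifidum* mean to −0.22. By slide, *B. clausii* had −0.52 on slide 1 and 0.01 on slide 2, and *B. bifidum* had −0.39 on slide 1 and 0.51, or 1.42-fold, on slide 2. Without *B. bifidum* replicate 3 the mean of that strain was 0.51, and without *B. clausii* replicate 3 that of *B. clausii* was 0.01. The difference of *B. clausii* from *B. bifidum* on slide 2 was −0.50 (−0.74 from the processed signals and −0.39 with median centring), close in size to the −0.49 of Ccl2. With median centring replicate 2 had −0.41 with *B. clausii* and −0.44 with *B. bifidum*, so that difference rested on replicate 1. On slide 1 it was −0.13 for Ccl7 (1 array a strain).

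The second Ccl7 probe gave the same picture. Its log2 ratios were −0.32 and −0.46 with *L. acidophilus*, −0.09, −0.20 and −0.50 with *B. clausii*, and 0.48, 0.27 and −0.32 with *B. bifidum*. The probes differed by 0.02 to 0.23 on an array and had a Pearson r of 0.98 over the 8 arrays, which share their libraries. *B. clausii* replicate 2 was the array on which the probes fell on opposite sides of 0, at 0.04 and −0.20.

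Ccl12, which encodes a mouse chemoattractant also called MCP-5, was close to the detection limit. Its probe was well above background in both channels on *L. acidophilus* replicates 1 and 2 and on *B. bifidum* replicate 3, all on slide 1, and in neither channel on the other 5 arrays. Where it was measured, its log2 ratio was −0.05 and −0.93 with *L. acidophilus* and −0.12 with *B. bifidum*. The value of −0.93 came from 1 spot with an intensity of 106 in treated cells, against 302 in untreated cells. On *L. acidophilus* replicate 1 the intensities were 105 in treated cells and 151 in untreated cells. The *L. acidophilus* mean of −0.49 ± 0.62 (SD, n = 2) came from arrays whose SD was larger than the size of the mean. For *B. clausii* no array had Ccl12 well above background in either channel, so no fold can be given.

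**Figure D3:**
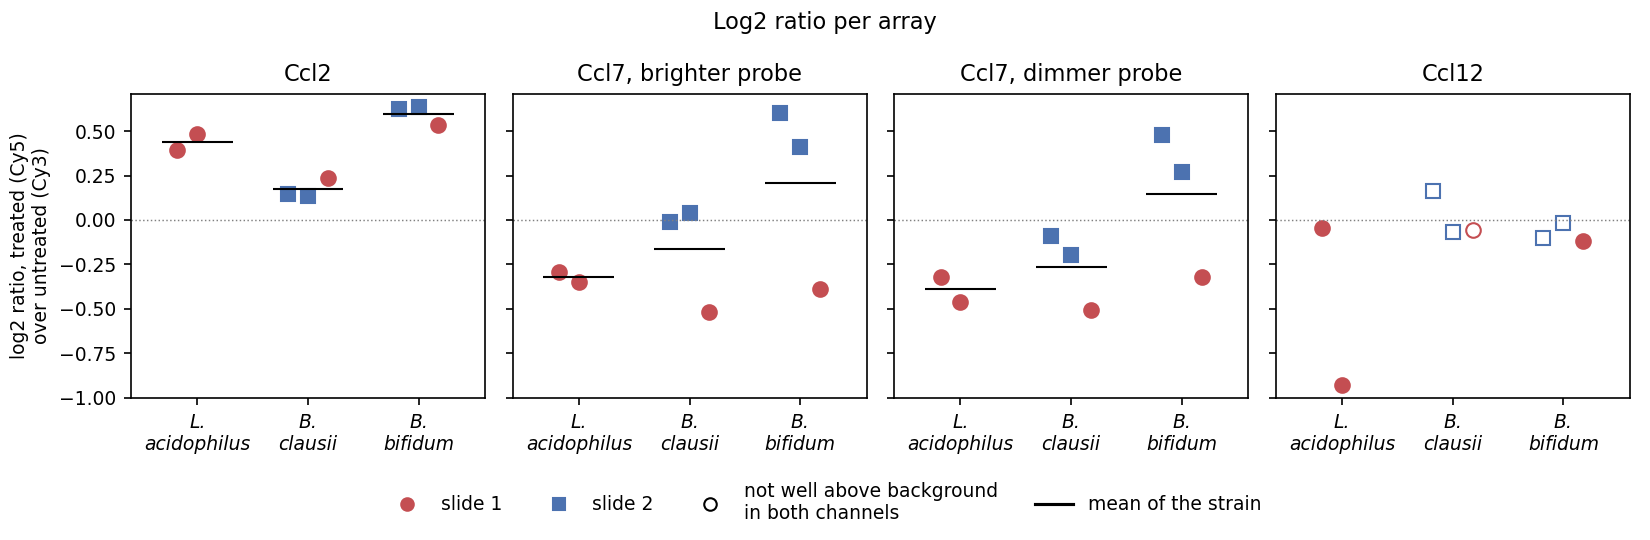
Log2 ratio of treated over untreated cells (y axis) on each array by strain (x axis) for Ccl2, both Ccl7 probes and Ccl12, with slide 1 as circles, slide 2 as squares, strain means as bars and hollow symbols for arrays not well above background. Ccl2 lies above 0 on all 8 arrays, and both Ccl7 probes lie below 0 on all 4 arrays of slide 1.

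The levels of Ccl2 and Ccl7 differed far more between the slides than between treated and untreated cells. On the log2 scale after loess and Aquantile, which gives the arrays a common distribution of brightness, Ccl2 in treated cells (Cy5) was 16.34 ± 0.09 on slide 1 and 13.44 ± 0.21 on slide 2 (SD, n = 4 each), 7.47-fold higher on slide 1. Untreated Ccl2 (Cy3) was 16.04, 15.85, 15.99 and 15.83 on slide 1 and 13.11, 13.12, 13.05 and 12.94 on slide 2. The slides did not overlap. The untreated means were 15.93 ± 0.11 on slide 1 and 13.06 ± 0.08 on slide 2 (SD, n = 4 each), a difference of 2.87 or 7.33-fold. With Cy3 centred on each array's median instead, untreated Ccl2 was 8.66, 9.48, 7.74 and 10.05 on slide 1. On slide 2 it was then 6.33, 6.34, 6.20 and 5.97, so the narrow spread on slide 1 depended on the scaling.

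Ccl7 in treated cells was 12.44 ± 0.32 on slide 1 and 8.92 ± 0.35 on slide 2 (SD, n = 4 each), 11.5-fold higher on slide 1. These levels came from the brighter probe. Untreated Ccl7 by that probe was 12.88, 13.04, 12.49 and 12.87 on slide 1, with the lowest value on *B. clausii* replicate 3. The second probe had 12.17, 12.35, 13.75 and 12.09 there, with its highest value on that same array, so the order within slide 1 depended on the probe. On slide 2 the brighter probe had 8.60, 8.62, 8.64 and 8.77. Its means of 12.82 ± 0.24 and 8.66 ± 0.08 (SD, n = 4 each) differed by 4.17, or 17.9-fold. With Cy3 centred on each array's median, the brighter probe ran from 3.94 to 7.37 on slide 1 and from 1.74 to 1.75 on slide 2. After loess and Aquantile, the difference with the mean of both probes was 4.16. The gap in Ccl7 was thus smaller in the treated than in the untreated channel, and this is the same measurement as the negative ratios on slide 1.

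Untreated Ccl12 was well above background on 3 of 4 arrays of slide 1 and on 0 of 4 of slide 2. The measured untreated levels of 7.03 ± 0.49 on slide 1 and 6.41 ± 0.13 on slide 2 (SD, n = 4 each) overlapped.

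For 15.8% of 14908 genes the treated channel of slide 1 lay wholly above that of slide 2, and for 19.6% wholly below, so a lack of overlap alone was common. In untreated cells the shares were 14.4% and 21.9%. The median slide difference over all genes was −0.09 in untreated cells, with an SD of 0.71. In untreated cells 64 genes, Ccl2 included, had a slide 1 excess at least as large as that of Ccl2, and 19 at least as large as that of Ccl7. Slide, scan setting and culture cannot be told apart here.

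**Figure D4:**
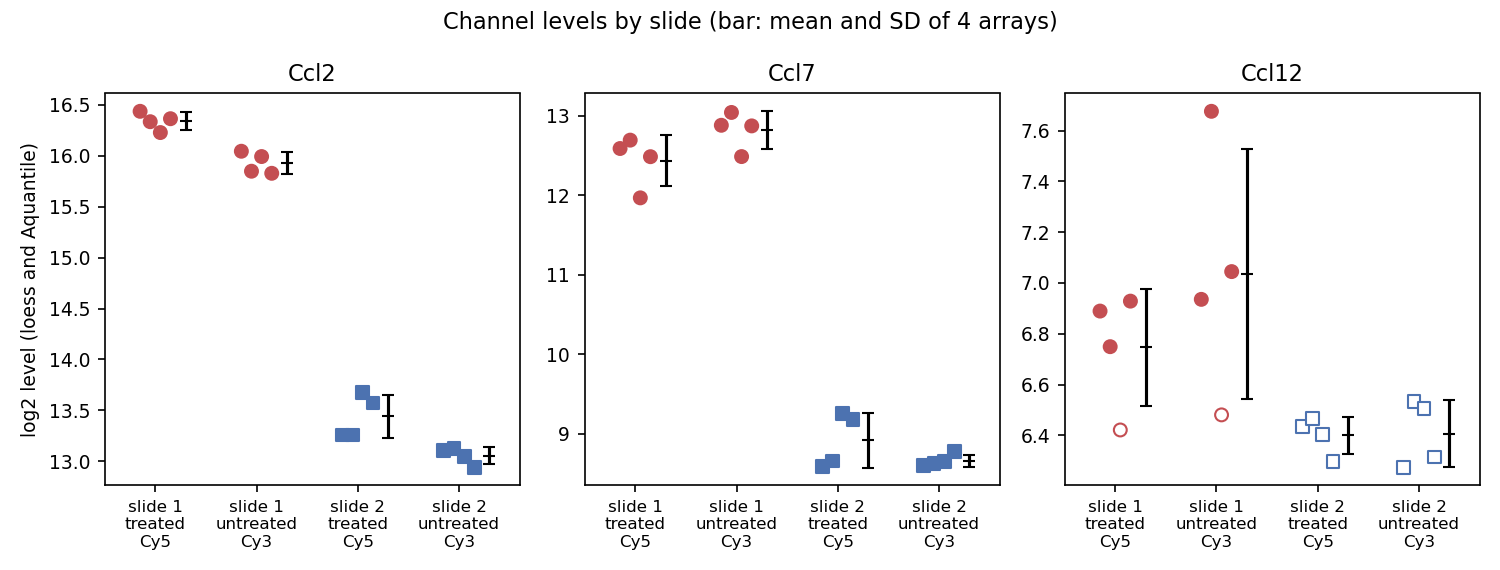
Log2 level (y axis) of Ccl2, Ccl7 and Ccl12 in treated (Cy5) and untreated (Cy3) cells on slide 1 and slide 2 (x axis), with arrays as points, hollow where not well above background, and bars for the mean and SD of 4 arrays. Untreated Ccl2 lies at 15.83 to 16.04 on slide 1 and at 12.94 to 13.12 on slide 2, and each panel has its own scale.

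Markers of other cell states moved with the slides too. Of 6 neutrophil markers, 4 were measured, and in untreated cells 2 (S100a8 and Camp) lay wholly higher on slide 1 and 2 (S100a9 and Mpo) overlapped. The summed neutrophil level there was 15565 to 72485 on slide 1 and 439 to 475 on slide 2, and S100a8, a calcium-binding protein of neutrophils and activated macrophages, was 184-fold higher on slide 1. That sum rested mostly on S100a8, whose mean log2 level on slide 1 was 14.53, beside 9.07 for Camp, 8.18 for S100a9 and 7.15 for Mpo. The defining neutrophil genes Ly6g and Elane were not among the measured genes. Of 6 osteoclast markers, a fate open to this line, 3 (Acp5, Dcstamp and Mmp9) lay wholly higher on slide 1. Ocstamp (at 0.379-fold) and Calcr (at 0.947-fold) overlapped, and Ctsk lacked a value on *B. clausii* replicate 3. Sums over the osteoclast list were 5194 to 7922 on slide 1 and 1448 to 1840 on slide 2. The sum over macrophage markers was 88371 to 99884 on slide 1 and 62908 to 66558 on slide 2, with 2 of its 8 measured genes wholly higher on slide 1, 1 (Fcgr1, at 0.125-fold) wholly lower and 5 overlapping. The macrophage sum rested mostly on Cd14, at a mean log2 level of 15.97 on slide 1 and 15.26 on slide 2. The median slide difference over the macrophage list was 0.14. Summed endothelial markers were at 886 to 1079 on slide 1 and 449 to 505 on slide 2, and dendritic cell markers at 533 to 633 on slide 1 and 688 to 884 on slide 2. Members of both lists went either way. Of 3 measured endothelial genes, 1 (Vwf, 3.81-fold) lay wholly higher on slide 1, 1 (Kdr, at 0.806-fold) wholly lower and 1 overlapped. On slide 1 the endothelial sum rested mostly on Vwf, at a mean log2 level of 9.66, beside 6.71 for Cdh5 and 6.64 for Kdr. Among 4 measured dendritic cell genes, 1 (Itgax, 1.91-fold) lay wholly higher, 1 (Zbtb46, at 0.412-fold) wholly lower and 2 overlapped. The part of all these markers in the levels of Ccl2 and Ccl7 was not tested.

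Neighbouring chemokine genes had slide differences of either sign. Untreated Ccl4, which encodes the macrophage inflammatory protein MIP-1 beta, was 7.96-fold higher on slide 1, while Ccl5, an interferon-inducible chemokine gene, was at 0.445-fold of its slide 2 level. Of 11 measured CC chemokine genes other than Ccl2, Ccl7 and Ccl12, 3 lay wholly higher on slide 1 and 3 wholly lower. In the Ccl2 cluster itself, Ccl8, counted among those wholly lower, had 6.41 ± 0.15 on slide 1 and 6.82 ± 0.22 on slide 2 (SD, n = 4 each). Ccl1 had 6.52 on slide 1 and 6.55 on slide 2. Both were near the detection limit, with Ccl8 well above background in untreated cells on 4 arrays and Ccl1 on 1 array. Of 21 measured inducers of Ccl2 and their receptors, 3 lay wholly higher on slide 1 in untreated cells and 7 wholly lower. Untreated Il1b, an inflammatory cytokine gene, was 38.3-fold higher on slide 1, Tnf was 2.38-fold higher, and Tlr2 was at 0.610-fold of its slide 2 level.

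Genes around the 3 chemoattractants were read from a limma fit over all 8 arrays with a mean for each strain, adjusted over 15203 genes by the Benjamini-Hochberg method at 0.05. With *L. acidophilus* 0% of genes passed in either direction (1103 genes had an unadjusted p under 0.05). With *B. clausii* 2.17% rose and 2.6% fell, and with *B. bifidum* 0.506% rose and 1.22% fell. These counts moved with single arrays. Without *B. clausii* replicate 1 or 2 no gene passed for that strain (1930 and 1937 at an unadjusted p under 0.05), and without its replicate 3 it had 5479 calls instead of 725. *B. bifidum* had 0 calls without its replicate 1 or 2 (1247 and 1400 genes with unadjusted p under 0.05), and 2088 when its replicate 3 was left out, instead of 262. With the replicate number as a block, which pairs *B. clausii* with *B. bifidum* arrays of the same slide, 11.9% of genes rose and 16.6% fell with *B. clausii*, and 4.05% rose and 10.9% fell with *B. bifidum*. For *L. acidophilus*, whose numbers pair with nothing, that fit gave 1.89% and 1.41%. Within slide 2 alone, 25.7% rose and 30.3% fell with *B. clausii*, and 15.1% rose and 23.6% fell with *B. bifidum*.

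The receptors of these chemokines were near the detection limit. Of 11 listed chemokine and decoy receptor genes, 8 were measured, none was well above background in untreated cells on all arrays, and 0 rose and 0 fell with any strain. Ccr2, the receptor of the 3 ligands, was above background in untreated cells on 3 arrays. Its log2 ratios ran from −0.22 to 0.11. Median ratios of the receptor list were −0.01, 0.06 and −0.04 with *L. acidophilus*, *B. clausii* and *B. bifidum*, beside 0.01, −0.01 and −0.01 over all genes. Ccrl2, a receptor without chemotactic signalling, had 0.13 ± 0.09 with *B. clausii* (SE, n = 3, limma adjusted p = 0.373). With median centring that mean was −0.0086, or 0.21 relative to the shift of all genes. With the replicate block 0 receptors passed as well, while within slide 2 alone 2 rose with *B. clausii*.

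Other CC chemokine genes went in directions of their own. Of 11 measured of 15 listed, 0 passed with *L. acidophilus*, 1 fell with *B. clausii* and 1 fell with *B. bifidum*. Ccl5 had log2 ratios of −0.94, −0.99 and −0.34 with *B. clausii*, and fell by 0.76 ± 0.12 (SE, n = 3, limma adjusted p = 0.0343). Ccl4 had −1.32, −1.33 and −0.53 with *B. bifidum*, a mean of −1.06 ± 0.21 (SE, n = 3, limma adjusted p = 0.0471), so it fell on the arrays on which Ccl2 was highest. With *B. clausii*, Ccl4 was at 0.56 and 0.59 on slide 2 and −0.41 on slide 1. With *L. acidophilus*, on slide 1, it was at −0.39 and −0.48. After loess Ccl4 was thus below 0 on each array of slide 1, whichever bacterium had been added. Ccl9, a constitutive macrophage chemokine gene, had 0.29 ± 0.07 with *B. clausii* (SE, n = 3, limma adjusted p = 0.0532). With the replicate block, 1 gene rose and 2 fell with *B. clausii* and 4 fell with *B. bifidum*. The falls of Ccl5 with *B. clausii* and of Ccl4 with *B. bifidum* kept their sign under each normalization tried. Other means did not. With median centring Ccl4 had 0.31 with *L. acidophilus* (−0.44 after loess) and −0.19 with *B. clausii* (0.25 after loess), and Ccl9 had −0.16 with *B. clausii*. Relative to the shift of all genes these were 0.17, 0.03 and 0.07.

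Of 9 measured among 16 other chemokine genes, 1 rose with *B. clausii* and none passed with the other strains. Cxcl2, a neutrophil chemoattractant gene, had log2 ratios of 1.01 and 1.09 with *B. clausii* and no value on replicate 3, where its spot was marked as an outlier, and rose by 1.05 ± 0.10 (SE, n = 2, limma adjusted p = 0.0158). With median centring that mean was 0.45. Its mean was −0.01 with *B. bifidum*. The interferon-inducible Cxcl10 had 1.08 and 1.09 on slide 2 and −0.19 on slide 1 with *B. clausii* (mean 0.66 ± 0.22, SE, n = 3, limma adjusted p = 0.0891). Both Ccl2 and Ccl7 had their lowest slide 2 ratios with *B. clausii*, the strain with the highest Cxcl2 and Cxcl10 ratios.

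Among inducers of Ccl2 and their receptors, 21 of 22 were measured and 0 rose or fell with any strain. Tlr2, a receptor for bacterial lipoproteins, had −0.66 ± 0.16 with *B. clausii* (SE, n = 3, limma adjusted p = 0.0506), and Ly96, the partner of Tlr4, −0.46 ± 0.12 (SE, n = 3, limma adjusted p = 0.055). Tnf had −0.28 ± 0.08 with *B. bifidum* (SE, n = 3, limma adjusted p = 0.096). The list's median was −0.20 with *B. clausii*, beside −0.01 over all genes, and −0.05 with *B. bifidum*. With the replicate block, 1 rose and 9 fell with *B. clausii* and 6 fell with *B. bifidum*.

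Of 24 transcription factors known to act on Ccl2 or to restrain its activators, 22 were measured. With *B. clausii* 1 rose and 3 fell, and 0 passed with the other strains. Relb, a subunit of NF-kB, fell by 0.44 ± 0.08 (SE, n = 3, limma adjusted p = 0.0372) and the myeloid factor Cebpa by 0.29 ± 0.06 (SE, n = 3, limma adjusted p = 0.043). Fosb, a part of AP-1, rose by 0.33 ± 0.08 (SE, n = 3, limma adjusted p = 0.047). The directions of Relb, Cebpa and Fosb held under each normalization tried, although the Fosb mean was 0.0082 from the processed signals and that of Relb −0.21. With the replicate block, 3 factors rose and 7 fell with *B. clausii*, and 2 rose and 3 fell with *B. bifidum*.

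None of the 9 listed factors of mRNA decay, all measured, passed with any strain. Zfp36, which destabilises many cytokine transcripts, had 0.57, 0.52 and −0.33 with *B. clausii* and −0.59, −0.52 and −0.13 with *B. bifidum*. Its mean was 0.25 ± 0.17 with *B. clausii* (SE, n = 3, limma adjusted p = 0.324) and −0.41 ± 0.17 with *B. bifidum* (SE, n = 3, limma adjusted p = 0.222). With median centring the *B. clausii* mean of Zfp36 was −0.18, or 0.04 relative to the shift of all genes. Khsrp, which also promotes decay, had 1.11, 1.14 and −0.21 with *B. clausii* and 1.09, 1.09 and −0.11 with *B. bifidum*. On slide 2 the strains thus stood on opposite sides of 0 for Zfp36 and on the same side for Khsrp. Under the replicate block 2 decay factors rose with *B. clausii*, and 1 rose and 1 fell with *B. bifidum*.

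Of 15 genes of signalling below Ccr2, 14 were measured, and all 14 were well above background in untreated cells on all arrays. With *B. clausii* 2 fell, with the other strains 0 passed. Pik3cg, a phosphoinositide 3-kinase coupled to chemokine receptors, fell by 0.47 ± 0.10 (SE, n = 3, limma adjusted p = 0.0411), and Jak2, a tyrosine kinase, by 0.38 ± 0.08 (SE, n = 3, limma adjusted p = 0.0467). Both kept their sign under each normalization tried, with Jak2 at −0.22 from the processed signals. With the replicate block, 3 rose and 3 fell with *B. clausii* and 3 rose with *B. bifidum*.

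**Figure D5:**
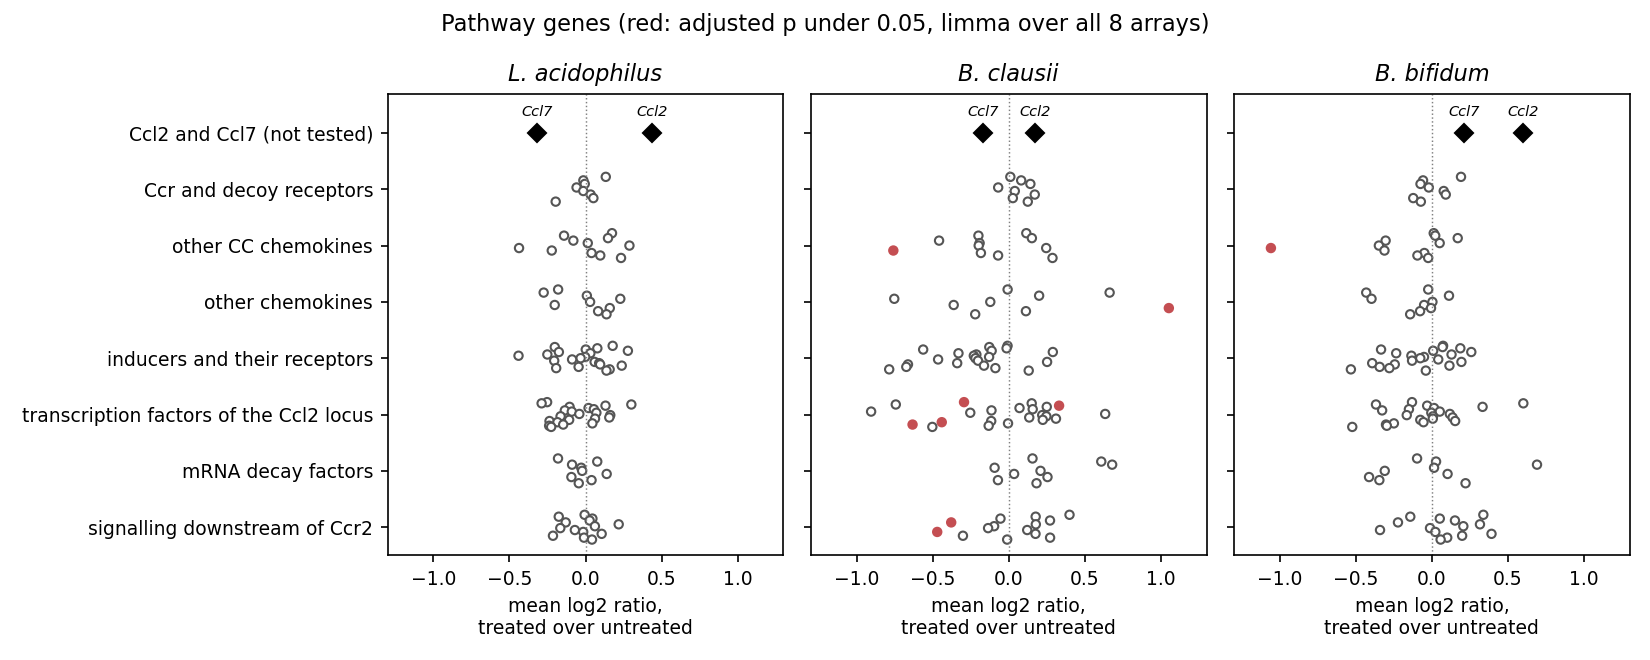
Mean log2 ratio of treated over untreated cells (x axis) for genes of 7 pathway lists (rows) in each strain (panels), filled where the limma adjusted p was under 0.05, with Ccl2 and Ccl7 above as diamonds. Filled points number 0 with L. acidophilus and 1 with B. bifidum.

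Between *B. clausii* and *B. bifidum*, 0.0132% of genes were higher and 0.0132% lower over all 8 arrays, and no gene of the 7 lists passed. Blocking on the replicate number gave 0.0132% and 0.00658%. Within slide 2, where 14.9% and 14.7% of all genes passed, 3 other CC chemokine genes were higher with *B. clausii* and 2 lower. Ccl4 was higher there by 1.90 ± 0.06 (SE, n = 2 arrays a strain, limma adjusted p = 0.000415), the reverse of the Ccl2 and Ccl7 differences on the same arrays, which were −0.49 and −0.50.

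The genes whose ratios ran most like those of Ccl2 over the 8 arrays were Eid1 (Pearson r = 0.98), Acot7 (0.98) and Nipsnap2 (0.98), from 5773 genes measured on all arrays with an SD at least 0.5 times that of Ccl2. In size they differed from it: Eid1 ran from −0.24 to 0.02 while Ccl2 ran from 0.13 to 0.63. Those most like Ccl7 were Taf1c (0.99), Rela (0.99) and Acsbg1 (0.99), of 3407 candidates. Rela, which encodes an NF-kB subunit and was also on the list of transcription factors, had −0.24 and −0.23 with *L. acidophilus*, −0.06, 0.00 and −0.28 with *B. clausii*, and 0.39, 0.30 and −0.24 with *B. bifidum*. Of the candidates, 80 reached a correlation of at least 0.9 with Ccl2 and 119 with Ccl7. For Ccl12, with 5 arrays below background, the closest were Suclg1 (0.74), Rap1a (0.70) and Myo10 (0.69).

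Between the 3 genes, Pearson r over the 8 arrays was 0.40 for Ccl2 with Ccl7, −0.29 for Ccl2 with Ccl12 and 0.29 for Ccl7 with Ccl12. Ccl12 was below background on 5 of these arrays. Arrays of a slide and of a strain share their source, and these values are a description. After loess, both Ccl2 and Ccl7 had higher ratios with *B. bifidum* than with *B. clausii* on each slide. On slide 1 this rested on 1 array a strain, and that of *B. clausii* was the array with the poor grid. With median centring, replicate 2 on slide 2 went the other way for Ccl2 and for the brighter Ccl7 probe. On slide 1, Ccl2 was above 0 and Ccl7 below 0 on each of the 4 arrays after loess.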

How the data were processed

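Each array's deposited file gives linear intensity for every spot of a 2-colour Agilent array and its local background. It also gives the scanner software's log10 ratio (Cy5 against Cy3). The software was Feature Extraction, in version 10.7.3.1 per the file headers and 10.5.1.1 per the submitters' processing notes. Values in the authors' table matched that deposited log10 ratio to within 0.005, and 0 of its value columns were unmapped. Median signals were used, since mean signals were not among the columns used here. With limma 3.58.1 in R 4.3.3, background was corrected by normexp (offset 50), log2 ratios were normalized by loess with control spots at weight 0, outlier spots were removed and spots of a probe averaged. Of 41174 probes, 28598 were well above background in a channel on at least 2 arrays. Probes were named by transcript accession through RefSeq (GRCm38.p6, names only, as the files name another build), and a gene took its brightest probe. Levels per channel came from loess and Aquantile.

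Genes other than Ccl2, Ccl7 and Ccl12 were tested with lmFit and eBayes, a mean per strain, and Benjamini-Hochberg adjustment. The steps were tested on simulated data. Replicate numbers pair *B. clausii* with *B. bifidum*: same-numbered arrays share a slide, and their deviations correlated at 0.41, 0.30 and 0.46, while *L. acidophilus* arrays, on another slide than their numbers, had −0.09 to −0.06. Named genes were the 3 chemoattractants, up to 4 genes with the smallest p from each of 7 pathway lists, and the 3 genes most like each chemoattractant. One gene that this rule names is not reported here. Ccr2, Ccl1, Ccl8 and the cell type markers were named besides, after their values were seen. The 3 genes and all lists were chosen with earlier results of these data known. Alternatives were no background correction, processed signals, the deposited table, median centring, no filter, the mean of a gene's probes, slide or replicate blocks, each slide alone, and each array left out.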

Additional observations from a re-analysis of the deposited data

How the results depend on the processing

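Means of Ccl2 and Ccl7 rest on 2 or 3 arrays a strain, with the dyes never swapped and the slides uneven, and Ccl12 was too dim for a ratio on 5 arrays. For Ccl2, the *L. acidophilus* mean of 0.44 was 0.18 from the processed signals and from the deposited table, and 1.20 with median centring, where *B. clausii* had −0.28 and *B. bifidum* −0.020. For Ccl7, median centring gave 0.16 with *L. acidophilus*, −0.52 with *B. clausii* and −0.22 with *B. bifidum* (0.21 after loess). For Ccl12, all 3 *B. clausii* and 2 of 3 *B. bifidum* arrays were below background, and their values show only how an undetected probe moves with the settings: *B. clausii* (0.01) had −0.16 from processed signals, −0.30 from the deposited table and 0.19 with median centring, and *B. bifidum* (−0.08) had −0.016 with no background correction, and −0.17, −0.24 and 0.063 under those 3 settings. Leaving out each array in turn gave Ccl2 means of 0.39 to 0.49, 0.14 to 0.19 and 0.58 to 0.63 for *L. acidophilus*, *B. clausii* and *B. bifidum*, Ccl7 means of −0.35 to −0.29, −0.27 to 0.01 and 0.01 to 0.51, and Ccl12 means of −0.93 to −0.05, −0.06 to 0.05 and −0.11 to −0.06. The untreated slide difference was 2.78 for Ccl2 and 4.48 for Ccl7 with median-centred Cy3, and 4.60 for Ccl7 and 2.24 for Ccl12 with processed Cy3. It ran from 2.83 to 2.91 for Ccl2, 4.09 to 4.28 for Ccl7 and 0.41 to 0.81 for Ccl12 without single arrays. The cause of these shifts was not tested. Counts of limma calls varied more. *L. acidophilus* (0) had 4 with the mean of probes, 417 with the slide as a block, 502 with the replicate block and 0 to 59 without single arrays. *B. clausii* (725) had 252 with no background correction, 43 from processed signals, 71 from the deposited table, 0 with median centring (4846 at an unadjusted p under 0.05), 391 with the mean of probes, 3833 and 4330 with slide and replicate block, 8 within slide 1, 8503 within slide 2 and 0 to 5479 without single arrays. *B. bifidum* (262) had 1, 3 and 3 from processed signals, the deposited table and median centring, 2124 and 2267 with slide and replicate block, 7 and 5885 within slides 1 and 2, and 0 to 2088 without single arrays. *B. clausii* over *B. bifidum* (4) had 2 with no background correction, 0 from processed signals, the deposited table and median centring (1473, 1469 and 303 genes unadjusted), 234 when slide was a block, 3 with the replicate block, 0 and 4505 within slides 1 and 2 (2210 unadjusted on slide 1), and 0 to 2130 without single arrays. On slide 1 only *L. acidophilus* had replicates to estimate the spread, and the lone arrays were assumed to vary alike.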
